A study of Rattus norvegicus with 4 samples.

Results

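The Nr4a genes encode 3 orphan nuclear receptors, Nr4a1 (Nur77), Nr4a2 (Nurr1) and Nr4a3 (NOR-1), and all 3 were represented by probe sets in these arrays, among 13810 genes with a single symbol. All probe sets that the platform annotation assigns to these symbols were taken. This gave 6 probe sets, 5 on the design used at day 1 and 1 on the design used at day 3. The family was chosen with earlier results of these data known. The tissue was the lateral wall of the rat cochlea, the outer wall of the cochlear duct, taken after the round window niche had been infused with 3-NP (3-nitropropionic acid), which blocks succinate dehydrogenase in mitochondria. There were 4 arrays: 3-NP at 300 mM and day 1, saline at day 1, 3-NP at 300 mM and day 3, and saline at day 3. Each group had 1 array, so differences are given without p-values and could not be checked in replicates.

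All 4 groups were female Sprague-Dawley rats of 8 to 10 weeks. In every group the left ear was treated under pentobarbital and lidocaine and the right cochlea was destroyed surgically, so the saline ears carry these procedures too. The labels place the tissue in the upper basal turn in some fields and in the second turn, with the stria vascularis removed, in another. The sources used here do not say how many animals went into an array. Fibrocyte markers were present: Coch, which encodes cochlin, had a signal of 5677 in 3-NP and 6548 in saline at day 3, and Gjb6, which encodes connexin 30, had 761.4 in 3-NP and 3139 in saline at day 1. Markers of the stria vascularis also passed the filter used below, 6 of 7 genes on the day 1 design and 5 of 5 on the day 3 design.

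Nr4a receptors are immediate early transcription factors: their transcripts appear within a short time of a stimulus and are short-lived. In these orphan receptors the pocket that holds a ligand in other nuclear receptors is filled by the protein's own side chains. Their activity therefore depends largely on how much of them is made. They bind the NBRE element as monomers, and Nr4a1 and Nr4a2 can also pair with retinoid X receptors. Cyclic AMP, calcium and inflammatory signals induce the genes, in part through the transcription factor CREB.

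CREB binds the cAMP response element, whose core is TGACG. The 250 bases before the RefSeq start of Nr4a1 and Nr4a2 are shown because cores of this kind are a known input to the family, with each TGACG, or CGTCA on the other strand, in capitals. The Nr4a1 window lies at chr7:134259888-134260137 on the plus strand and the Nr4a2 window at chr3:62104888-62105137 on the minus strand of GRCr8, both inside the span annotated to the gene, so they belong to 1 of its starts.
Nr4a1: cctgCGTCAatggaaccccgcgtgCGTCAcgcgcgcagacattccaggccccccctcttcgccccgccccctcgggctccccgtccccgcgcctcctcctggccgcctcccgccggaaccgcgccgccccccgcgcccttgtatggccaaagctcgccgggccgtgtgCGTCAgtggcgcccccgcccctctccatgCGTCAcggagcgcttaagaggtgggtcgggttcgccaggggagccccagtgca
Nr4a2: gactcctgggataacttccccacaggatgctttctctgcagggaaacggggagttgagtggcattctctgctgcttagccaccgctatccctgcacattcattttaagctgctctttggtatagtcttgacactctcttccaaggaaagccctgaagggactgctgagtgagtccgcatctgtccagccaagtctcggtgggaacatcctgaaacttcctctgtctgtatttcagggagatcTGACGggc

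The Nr4a1 window held 4 cores, starting 246, 226, 82 and 53 bases before the start, and the Nr4a2 window held 1, starting 8 bases before it. Among 33469 RefSeq windows of this length, 18.2% held at least 1 core on either strand and 0.173% held at least 4. The Nr4a1 window was rich in G and C, at 74.8% against a median of 51.2% over all windows, and the Nr4a2 window was at 52.0%. The full palindrome TGACGTCA (1.59% of windows), the AP-1 site TGACTCA (4.05%), the NBRE AAAGGTCA (1.24%) and the CArG box (1.5%), each searched on both strands, were in neither of these windows. The full palindrome contains the core, so those searches overlap.

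The deposited values are MAS5 signals on a linear scale, and since probe sets differ in how brightly they bind, a higher signal of 1 probe set than of another is not read as more transcript. The median gene had a log2 ratio (3-NP over saline) of 0.44 at day 1 and 0.10 at day 3, so ratios are given relative to that median gene. A signal under the 30th percentile of its array counted as unmeasured and was set to that percentile, the floor, which was 22.0 in 3-NP and 17.1 in saline at day 1, and 9.85 in 3-NP and 9.22 in saline at day 3. A ratio with 1 signal at the floor is a bound. A gene was counted as measured when its probe set reached the median signal of at least 1 array of the pair, and as higher or lower when at least 2-fold from the median gene, a log2 ratio of 1.

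Nr4a1 and Nr4a2, the members that passed this filter at day 1, both had higher signals in 3-NP, and Nr4a3 had at least 2-fold higher signals by 1 probe set on each day. Nr4a1 reached the median in both arrays. Nr4a2 at day 1 and Nr4a3 at day 3 passed through the 3-NP array only, with saline under its median, so that they could pass the filter only by standing higher in 3-NP. As background, 7.76% of the genes measured at day 1 met the 2-fold rule as higher and 6.47% as lower. At day 3 the shares were 9.21% higher and 8.18% lower, and Nr4a3 was the only member on that design. In counts, 507 genes were higher and 423 lower at day 1 (1169 and 171 as deposited, without centring), and 366 were higher and 325 lower at day 3 (433 and 255 as deposited). Of the 6 probe sets 3 passed the filter, 1 gave a bound below it and 2 were at the floor in both arrays.

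Nr4a1 is induced in many cell types by stress and growth signals and is known for its part in T cell death and in the survival of patrolling monocytes in mice. Its single probe set, 1386935_at, had a signal of 270.7 in 3-NP and 90.3 in saline at day 1, both above the array medians of 60.7 in 3-NP and 44.9 in saline. The ratio was 3.00-fold as deposited and 2.21-fold relative to the median gene, a log2 ratio of 1.14. Of 6533 measured genes 392, or 6.00%, had a higher ratio. Of the members it was the one with a saline signal well clear of the floor, at 5.27 times that level.

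Nr4a2 is best known as the factor that midbrain dopamine neurons need to form and persist, and it is induced in macrophages and fibroblasts by inflammatory signals. Its brighter probe set, 1369007_at, had 137.3 in 3-NP and 18.2 in saline at day 1. The relative log2 ratio of 2.48, a 5.58-fold difference, was exceeded by 68 of the 6533 genes, or 1.04%. The saline signal stood at 1.06 times the floor, so the size of this ratio rests on a signal at the edge of what was counted as measured. With the floor at the 40th percentile the ratio became a bound of 1.84.

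The other Nr4a2 probe set, 1387410_at, had 18.9 in 3-NP and 2.26 in saline, both under the floor, and gives no ratio. The annotation ties both Nr4a2 probe sets to the same transcript accession. A dim second probe set was common among genes measured as higher: of 86 such genes with another probe set on the day 1 design, the next brightest was at the floor in both arrays for 19 (22.1%), above the median gene for 56 and at or below it for 11.

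Nr4a3 is known from vascular smooth muscle and immune cells and, in humans, from gene fusions in a chondrosarcoma. At day 1 its probe set 1369067_at had 52.7 in 3-NP and 11.3 in saline, with saline at the floor, which makes it at least 2.27-fold higher relative to the median gene (log2 ratio 1.18). It did not pass the filter, since its 3-NP signal lay under the array median of 60.7. With the floor at the 40th percentile the bound became a log2 ratio of 0.46. The other Nr4a3 probe set, 1369217_at, had 15.5 in 3-NP and 16.9 in saline, both under the floor, and gives no ratio.

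At day 3 a further Nr4a3 probe set, 1393389_at, had 47.3 in 3-NP and 13.3 in saline. The ratio was 3.57-fold as deposited and 3.33-fold relative to the median gene, a log2 ratio of 1.74, and 65 of 3972 measured genes (1.64%) had a higher one. The 3-NP signal lay above the array median of 19.97, and the saline signal under its median of 18.67 but at 1.44 times the floor. The day 1 bound and the day 3 ratio come from different probe sets on different array designs, so whether Nr4a3 differed between the days was not tested.

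**Figure D1:**
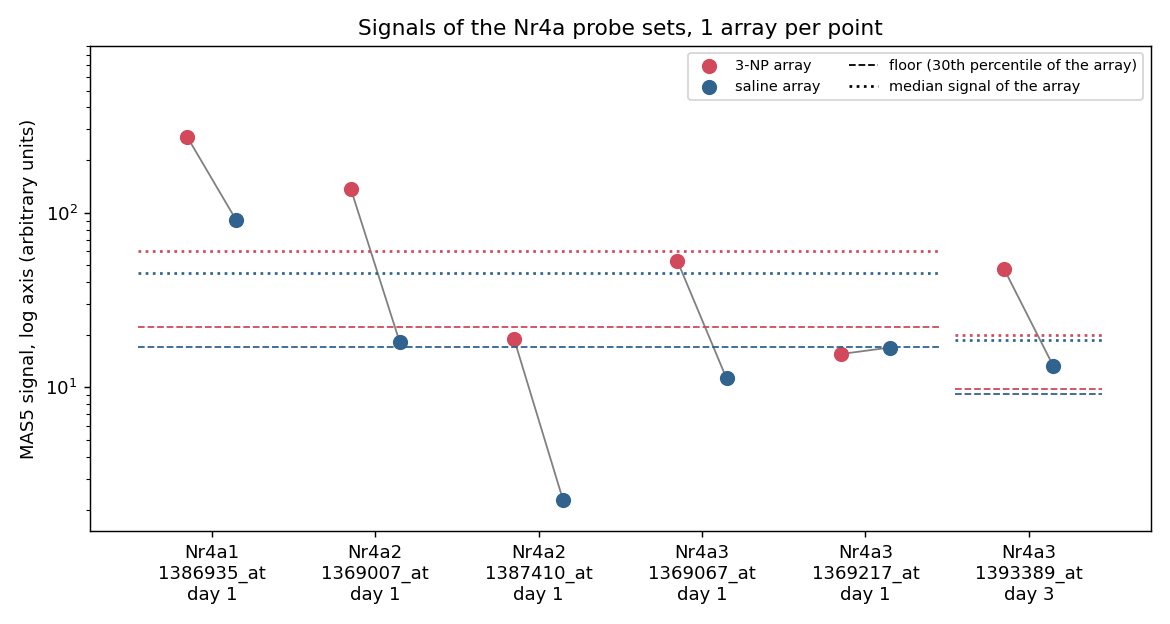
Deposited MAS5 signals (log axis) of the 6 Nr4a probe sets in the 3-NP array and the saline array of each day, with each array's floor and median as lines in the colour of the array. Nr4a1 sits above the floor in both arrays, the saline signal of the brighter Nr4a2 probe set lies at the floor line, and 2 probe sets lie under the floor in both arrays.

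The error that these arrays can show is the spread between probe sets of 1 gene. For the log2 ratio of 1 probe set the SD was 0.35 at day 1, from 733 genes with at least 2 probe sets above the floor, and 0.44 at day 3, from 767. It was larger for dim probe sets, at 0.43 among the dimmest of 3 equal parts at day 1 and 0.52 at day 3, against 0.29 and 0.31 among the brightest part. In units of the SD over all these genes, Nr4a1 lay 3.3 SDs above the median gene, Nr4a2 7.0 and the Nr4a3 probe set of day 3 4.0. With the SD of the dimmest part, the part in which their mean signals fall, Nr4a2 lay 5.8 and the day 3 Nr4a3 probe set 3.4 SDs above it. These distances are descriptive and no test of chance. Nr4a2 and the day 3 Nr4a3 probe set could pass the filter only by standing higher in 3-NP. The saline signal of Nr4a2 was at 1.06 times the floor, and the SD comes only from probe sets that passed the filter and lay above the floor. This spread compares probe sets on the same 2 arrays. It leaves out any error that a whole array shares, and it leaves out animals and dissection.

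**Figure D2:**
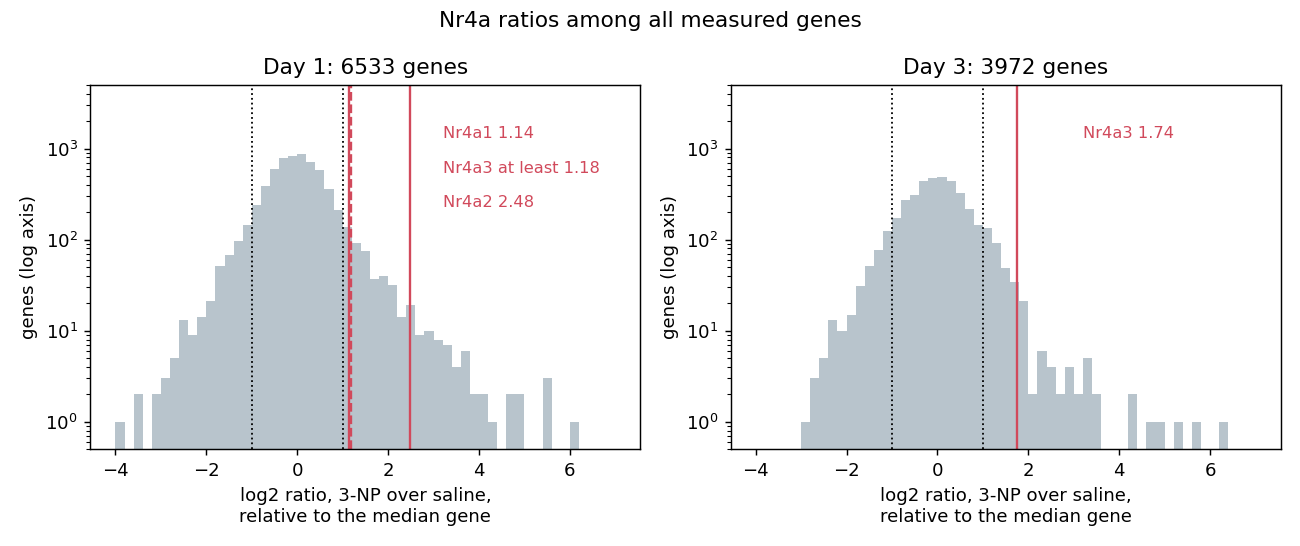
Histograms of the log2 ratio of 3-NP over saline relative to the median gene, for 6533 genes at day 1 and 3972 at day 3 (genes on a log axis). Red lines mark the members (dashed for the bound of Nr4a3), and dotted lines mark a 2-fold difference. Nr4a2 at 2.48 stands further into the upper tail than Nr4a1 at 1.14.

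The genes whose pair of signals was closest to a member's, by Euclidean distance in log2 signal over the 2 arrays of the day, describe these arrays and say nothing of equal transcript levels. For day 1 Nr4a2 and Nr4a3 the nearest genes were all at the saline floor, so that array does not order them. For Nr4a1 they were Pakap, Glrx, which encodes glutaredoxin, and Trip10, with 265.2 to 273.3 in 3-NP and 89.0 to 93.2 in saline. For Nr4a2 they were Ptges, the inducible prostaglandin E synthase, the glutamate transporter gene Slc1a1 and Mobp, a myelin gene, with 133.9 to 138.1 in 3-NP. For Nr4a3 they were Tfpi2, Jak3 and Kif22 at day 1, and Sik2, Steap1 and Ackr1 at day 3, with 46.9 to 51.8 in 3-NP and 12.1 to 14.5 in saline.

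Of the other genes that CREB can induce, 18 were listed and 16 were on the day 1 design. Without the filter 8 of these 16 were higher and 0 lower, where 6.2% of all genes on the design were higher on that basis. The list was chosen with earlier results of these data known, so its counts give no independent support. The filter left 11, with the count again at 8 higher and 0 lower and a median log2 ratio of 1.66. Of those 8 genes 3, Ptgs2, Fos and Atf3, passed through the 3-NP array only, so the median over the 11 is in part set by the filter. Ptgs2, the inducible cyclooxygenase, had 405.3 in 3-NP and 18.96 in saline, a log2 ratio of 3.98 that rests on a saline signal near the floor of 17.1. Fos was at 3.50 and Junb at 2.26, both AP-1 subunits. The stress factor gene Atf3, with saline at the floor, was at least 4.52-fold higher. Nr4a2 stood between Fos and Junb in this order and Nr4a1 below all 8.

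At day 3 only 4 genes of the list were on the design, and their ratios went both ways, with a median of 0.68. Of these 2 were higher and 1 lower, where 9.21% of all measured genes were higher and 8.18% lower. Gem, a small GTPase gene, was at 3.32 and Crem, which encodes CREB modulators and the repressor ICER, at 1.96, while Ppargc1a, a coactivator of mitochondrial biogenesis, was at -1.13. Crem had 3 probe sets that day, of which another gave 1.58 and the remaining one -0.15. At day 1 Crem was at 1.53, a value named after it was seen, and its other probe sets gave a bound of 1.21 and a ratio of -0.12.

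Of 18 measured genes upstream of the family (CREB, its CRTC coactivators, MEF2, and calcium and cyclic AMP signalling), 1 was higher at day 1 and 0 lower, with a median of 0.12, a count near the 7.76% and 6.47% of all measured genes. That gene was Hdac7, a deacetylase that binds MEF2, 2.46-fold higher relative to the median gene, with 76.1 in 3-NP and 22.8 in saline. Hdac7 passed the filter through the 3-NP array only, so it could pass only by standing higher there. With the floor at the 40th percentile or the filter at the 60th, the count was 0. Further probe sets of other genes in the list stood higher than the one that represents the gene, at 0.88 for Ppp3cb, 0.83 for Prkar1a and a bound of 0.93 for Prkar2a, named after their values were seen. At day 3, of 9 genes 1 was higher and 0 lower, where 9.21% of all measured genes were higher and 8.18% lower. The higher one was Elk1, a partner of serum response factor, with a bound of 1.03, and the list median was 0.25. Elk1 also passed through the 3-NP array only, at 20.2 against an array median of 19.97. MEF2 genes were represented at day 3 by Mef2a alone, whose probe sets gave -0.61 and -1.03, and at day 1 by none that passed the filter.

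Among the other nuclear receptors 14 of 37 on the day 1 design passed the filter, with 0 higher, 2 lower and a median of -0.03 (1 higher and 1 lower as deposited). The lower ones were Nr3c2, the mineralocorticoid receptor, with 59.7 in 3-NP and 126.2 in saline (log2 ratio -1.52), and Esrrb, an estrogen-related receptor, with 240.1 in 3-NP and 471.1 in saline (-1.41). Nr3c2 passed the filter through the saline array only, so it could pass only by standing lower in 3-NP. Without the filter 0 of the 37 were higher and 2 lower. The highest measured receptor, Rorb, stood at 0.75, under Nr4a1 at 1.14, and passed through the 3-NP array only. Thra, a thyroid hormone receptor gene, was at -0.74 by its brighter probe set and at -1.32 by the other. Over all measured genes that day 7.76% were higher and 6.47% lower. Of the retinoid X receptors, the partners of Nr4a1 and Nr4a2, Rxrb alone passed the filter, at -0.43. At day 3, 2 of 10 passed, and Thrb, a thyroid hormone receptor, lay furthest from 0 at -0.84.

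Few genes reported as Nr4a targets in other tissues could be read here. Of 23 listed, 19 were on the day 1 design and 3 passed the filter, with 0 higher and 0 lower. Over all measured genes 7.76% were higher and 6.47% lower at day 1, and 9.21% and 8.18% at day 3. Of the 3 targets measured at day 1, the matrix protein gene Spp1 was furthest from 0 at -0.80, with 4672 in 3-NP and 6002 in saline. At day 3, of 2 measured genes none reached 2-fold, and Tnfsf10, the death ligand TRAIL, was at 0.83. The steroidogenic and dopaminergic targets on the list, such as Star and Th, did not pass the filter where they were on a design.

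**Figure D3:**
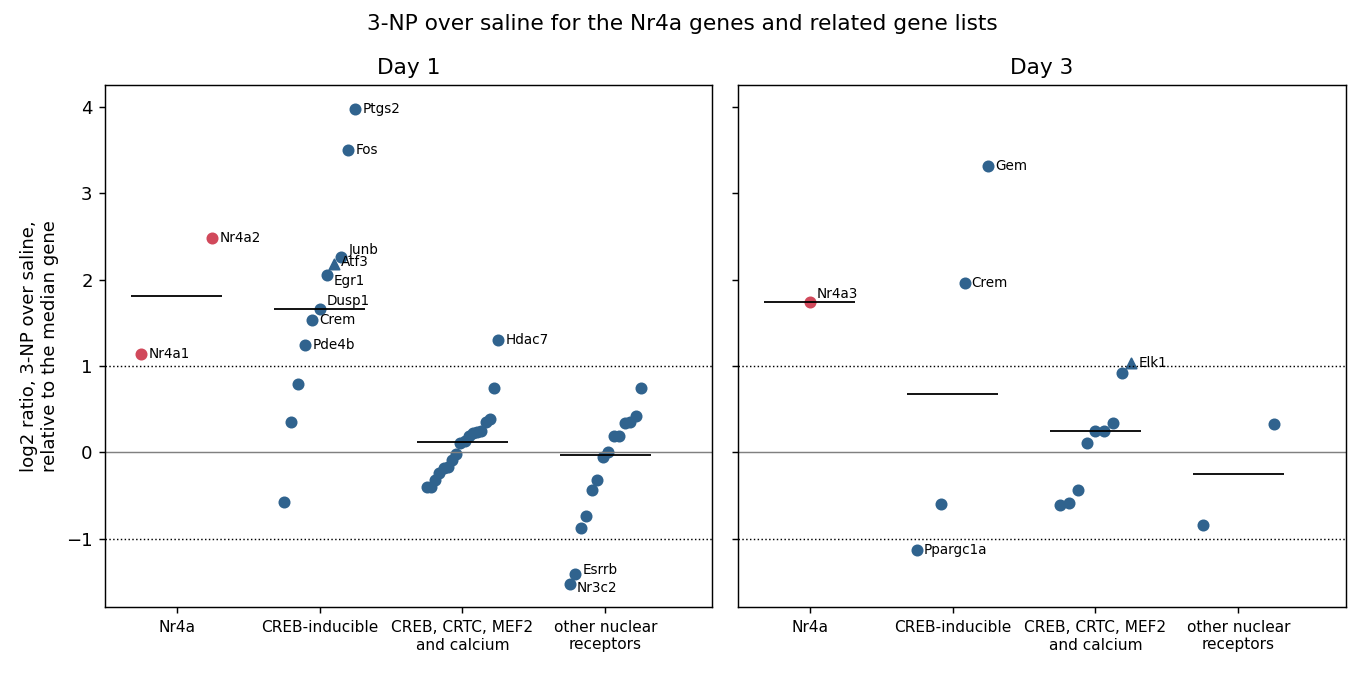
Log2 ratio of 3-NP over saline relative to the median gene for each measured gene of the Nr4a family and 3 related lists, at day 1 and day 3. Circles are measured ratios, triangles are bounds, horizontal bars are list medians and dotted lines mark 2-fold. At day 1 the Nr4a and CREB-inducible genes extend above the upper line, while 1 upstream gene and 0 other nuclear receptors do.

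Because the tissue was measured in bulk, more cells of a type and more RNA per cell cannot be told apart. Summed signals below run over the same probe sets in both arrays and include signals under the floor. They are as deposited and not centred, while the median gene had a log2 ratio of 0.44 at day 1 and 0.10 at day 3. Over all measured genes 7.76% were higher and 6.47% lower at day 1, and 9.21% higher and 8.18% lower at day 3. At day 1, 5 of 10 endothelial and mural markers on the design passed the filter, with 3 higher and 1 lower, and a summed signal of 677.5 in 3-NP and 278.2 in saline. Of those 3, Mcam and Plvap were bounds with saline at the floor that passed through 3-NP only, and another Mcam probe set gave 0.82. The other was Kdr, a VEGF receptor gene, at 1.61. The lower marker, Rgs5 at -1.14, passed through saline only.

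Of 7 monocyte and macrophage markers at day 1, 1 was higher, Cd14 at 1.54, and 0 lower, with a median of 0.34. Cd14 passed through the 3-NP array only, with 44.87 in saline against an array median of 44.88. The summed signal was 2564 in 3-NP and 1536 in saline, of which Lyz2 gave 1876 and 1183. Of 9 neuron and Schwann markers 3 were higher, Prph at 1.54, Egr2 at 1.53 and Tubb3 at 1.34, and 1 was lower, Sncg at -1.64. The median was 0.33. Prph and Tubb3 passed through 3-NP only. Another Egr2 probe set gave a bound of -0.11 with 3-NP at the floor, and another of Tubb3 was at the floor in both arrays. Stria and melanocyte markers had 4 of 6 lower and 0 higher, with a median of -1.29. Fibrocyte markers had 7 of 11 lower and 0 higher, led by Car3 at -2.57, Gjb6 at -2.48 and Col11a2 at -2.44. Their summed signal was 10375 in 3-NP and 16543 in saline. Without the filter 6 of the 11 were lower.

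At day 3, where Nr4a3 was at 1.74, few markers were on the design. Of 3 macrophage markers 0 were higher and 2 lower, with a summed signal of 69.5 in 3-NP and 109.5 in saline. Of 2 endothelial and mural markers 0 were higher and 0 lower, and of 2 neuron and Schwann markers 1 was higher, Pmp2 at 1.32. Of 5 stria and melanocyte markers 1 was higher, Tyrp1 by a bound, and 3 were lower. Another Tyrp1 probe set was measured at 0.69, under the 2-fold rule. Of 3 fibrocyte markers 1 was lower, Tbx18 at -1.19. Pmp2 and Tyrp1 passed the filter through 3-NP only, and Cd163 and Bsnd, both lower, passed through saline only. None of the markers was listed at 0. The part of these cell types in the Nr4a ratios was not tested.

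**Figure D4:**
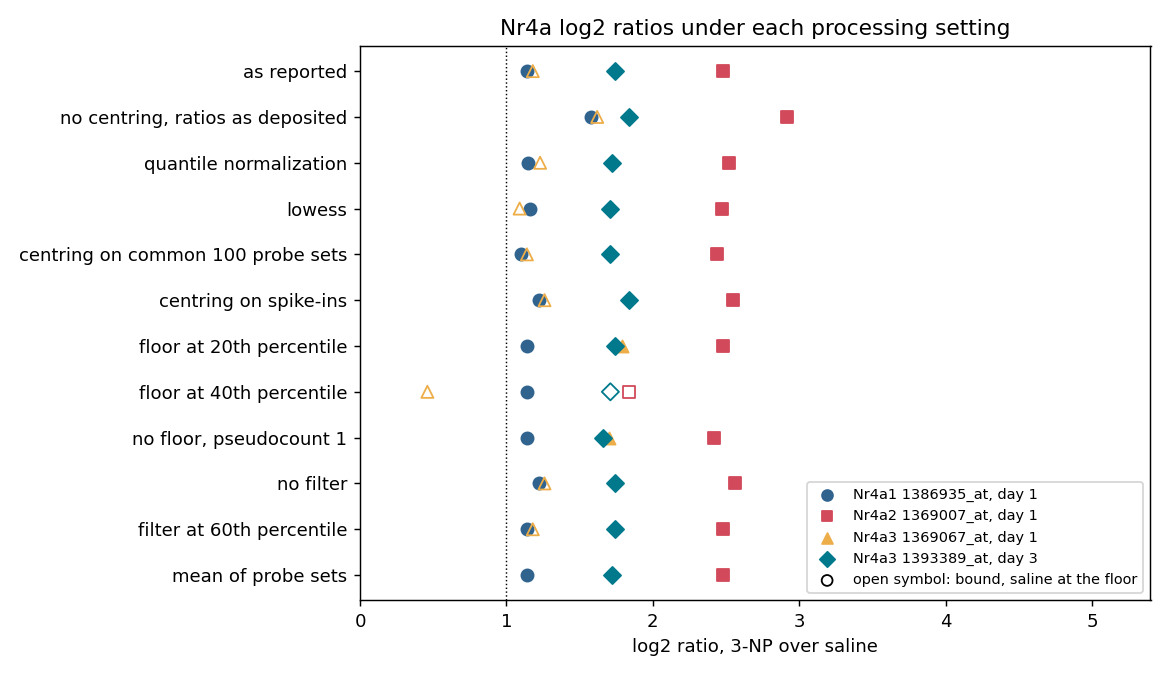
Log2 ratio of 3-NP over saline for the 4 Nr4a probe sets with a ratio or a bound, under the reported setting and 11 other ways of scaling, flooring and filtering. Open symbols are bounds with saline at the floor and the dotted line marks 2-fold. The Nr4a1 probe set ranges from 1.10 to 1.58, and the lowest point, 0.46, is the day 1 bound of Nr4a3.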

How the data were processed

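The authors deposited 1 table of MAS5 signal intensities per day, on a linear scale, per the submitters' processing notes. Neither detection calls nor a scaling target were given in those sources. Per the labels' protocols, 6 µg of total RNA was turned into biotinylated cRNA. The 2 array designs, of 15923 and 15333 probe sets, share 157 probe sets, so days were not compared in level. Symbols came from the platform annotation and were updated by gene identifier to RefSeq (GRCr8): 12783 probe sets had 1 symbol, 312 several and 2771 none at day 1, and 7564, 100 and 7612 at day 3, with control probe sets left out.

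Signals were floored at the 30th percentile, log2 ratios were taken as 3-NP minus saline and centred on the median of the measured genes, and a gene was represented by its brightest probe set that passed the filter (50th percentile in at least 1 array). Python 3.11.15, numpy 2.4.6, pandas 2.3.3 and statsmodels 0.14.6 (lowess) were used, and the steps were tested on simulated data. With 1 array per group no test was run, and the number of arrays limits the precision. Members and gene lists were chosen with earlier results of these data known, so they give no independent support. Genes named were each member's 3 nearest genes and, per list of interest, up to 4 genes at least 2-fold apart, or else the one furthest from 0. Alternatives covered centring, floor, filter and probe set choice.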

Additional observations from a re-analysis of the deposited data

How the results depend on the processing

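Nr4a1, Nr4a2 and the day 3 Nr4a3 probe set stayed above 0 and at least 2-fold higher in 3-NP under all 11 alternatives, at log2 ratios of 1.10 to 1.58, 1.84 to 2.92 and 1.66 to 1.84. Not every alternative could move them. With the mean of probe sets Nr4a1 and Nr4a2 stayed at 1.14 and 2.48, since 1 probe set of each passed the filter. The other floor percentiles left Nr4a1 at 1.14, since both its signals lay above them. The day 1 bound of Nr4a3 stayed above 0 in 10 of 10 and reached 2-fold in 9; it has no value as a mean of probe sets, since none passed the filter. As deposited, without centring, the log2 ratios at day 1 were 1.58 for Nr4a1, 2.92 for Nr4a2 and 1.62 for Nr4a3, and 1169 genes were higher and 171 lower, against 507 and 423 relative to the median gene. Nr4a3 at day 1 gave 1.79 with the floor at the 20th percentile, 1.70 with a pseudocount of 1 in place of a floor, and 0.46 with the floor at the 40th percentile, where Nr4a2 gave a bound of 1.84 and the day 3 Nr4a3 value was also a bound. The upstream list had 0 to 2 genes higher on either day. The other nuclear receptors had 1 higher and 1 lower at day 1 as deposited, and 3 lower with the mean of probe sets. No paired analysis was possible because each group has 1 array. Signals near the floor limit the size of the Nr4a2 and Nr4a3 ratios.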
